A study of Rattus norvegicus with 18 samples.

Results

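The expression of 46 genes that encode regulators of pre-mRNA splicing was examined in the rat hippocampus during chronic ethanol feeding and withdrawal. They were taken by gene symbol from the 38445 genes counted, and comprise 12 SR proteins, 17 heterogeneous nuclear ribonucleoproteins (hnRNPs) and 17 tissue-restricted or disease-linked RNA-binding regulators of splicing. In withdrawal, the poly(C)-binding hnRNPs *Pcbp1* and *Pcbp2* were higher in all 6 rats than in any control rat and than in any rat still on ethanol. The increases were 10.1% to 15.1% and are therefore small. Neither gene passed the test against control or ethanol when withdrawal rat 6 was left out. *Pcbp2* did not pass against control without adjustment for unrecorded differences between rats. No control rat shared a set of library indexes with a withdrawal rat, so that indexes and diet cannot be told apart there. No member was lower in withdrawal by the test used, and no SR protein passed it in any comparison.

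SR proteins carry arginine- and serine-rich domains, bind exonic enhancers and favour the use of nearby splice sites. Many hnRNPs bind introns or exonic silencers and oppose them, so that exon use depends on the balance of both families. In neurons a further layer is supplied by regulators that are enriched in brain or muscle, such as the NOVA, RBFOX, MBNL, CELF and ELAVL families. One textbook example is the exchange of PTBP1, which represses neuronal exons in progenitors and glia, for its relative PTBP2 in neurons. The counts used here sum the exons of a gene. They measure how much mRNA of each regulator was present, not how any transcript was spliced and not protein.

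Adult male Sprague Dawley rats received Lieber-DeCarli liquid diet. The control group (6 rats) had diet without ethanol throughout. The ethanol group (6 rats) was brought up to diet with 9% ethanol (v/v), was kept on it for 16 days and was not withdrawn. The withdrawal group (6 rats) had the 9% diet for 15 days and then control diet for 24 h before the dorsal hippocampus was dissected. Each library was poly(A)-selected, strand-marked RNA of 1 rat. The comparisons ask whether splicing regulators changed with ethanol intake itself, with its removal, or between the groups that had both been fed ethanol.

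The 18 libraries held between 30873228 and 42679748 counted read pairs. The hippocampal neuron markers (5 genes) were present in every rat, but their summed level ranged from 270.9 CPM (counts scaled to library size with TMM normalisation) in withdrawal rat 5 to 875.4 CPM in ethanol rat 5. Thalamus markers summed to 1242 CPM in ethanol rat 1, above the 155.1 to 694.7 CPM of all other rats, and choroid plexus markers summed to between 27.82 CPM in withdrawal rat 4 and 5246 CPM in ethanol rat 1 and withdrawal rat 6. All 3 blood genes tested (*Hbb*, *Hba-a2* and *Alas2*) were lower in ethanol and in withdrawal than in control. In bulk tissue, a different number of cells of a type cannot be told apart from a different level per cell. The library indexes formed 3 sets, one with all control rats, one with all ethanol rats and withdrawal rats 1 and 2, and one with withdrawal rats 3 to 6. No control rat shared a set with another group, so that the index set and the diet cannot be told apart in comparisons with control.

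Promoter sequences are given for *Ptbp1*, *Pcbp1* and *Pcbp2*, the members that passed the test in withdrawal against control under most of the settings tried. The RefSeq promoter table (rat build GRCr8, another build than the one used for the counts) held 40 of the 46 members. The window is the 250 bases before the most upstream annotated start, written 5′ to 3′ on the gene's own strand. Capitals mark matches on either strand to 4 elements. The letters searched were GGGCGG for the GC box and CCAAT for the box of that name. They were CACGTG for the E box and TTCNNNGAA for the STAT-type element. The *Ptbp1* window lies at chr7:10502958-10503207 on the minus strand, that of *Pcbp1* at chr4:120532108-120532357 on the minus strand and that of *Pcbp2* at chr7:135483651-135483900 on the plus strand.
Ptbp1: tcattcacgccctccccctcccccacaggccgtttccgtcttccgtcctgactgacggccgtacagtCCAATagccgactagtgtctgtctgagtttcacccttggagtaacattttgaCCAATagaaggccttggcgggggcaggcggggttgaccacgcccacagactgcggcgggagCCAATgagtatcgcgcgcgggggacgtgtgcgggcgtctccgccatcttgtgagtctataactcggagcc
Pcbp1: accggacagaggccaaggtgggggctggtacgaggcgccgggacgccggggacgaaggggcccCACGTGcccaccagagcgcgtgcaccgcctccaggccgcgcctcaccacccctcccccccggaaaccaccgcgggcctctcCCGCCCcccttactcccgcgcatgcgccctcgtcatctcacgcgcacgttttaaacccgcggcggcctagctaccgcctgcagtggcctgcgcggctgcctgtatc
Pcbp2: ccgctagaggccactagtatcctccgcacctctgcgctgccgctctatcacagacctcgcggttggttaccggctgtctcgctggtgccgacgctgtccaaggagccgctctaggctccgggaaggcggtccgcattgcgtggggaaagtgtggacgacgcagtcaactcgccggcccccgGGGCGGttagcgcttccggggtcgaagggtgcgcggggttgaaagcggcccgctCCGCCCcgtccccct

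The *Ptbp1* window holds 3 CCAAT boxes and no match to the other elements. The *Pcbp1* window holds 1 GC box and 1 E box, and the *Pcbp2* window 2 GC boxes, with neither CCAAT box. A GC box was present in 29 of the 40 member promoters (72.5%), against 53.7% of the 13076 promoters of genes tested and 32.4% of all 27457 promoters. The CCAAT box was found in 18 member promoters (45.0%, against 34.9% of promoters of genes tested and 34.3% of all), the E box in 6 (15.0%, against 7.72% and 5.78%) and the STAT-type element in 2 (5.0%, against 6.1% and 7.5%). None of the 7 members that passed the test in withdrawal had the STAT-type letters in this window. These are counts of letters, and binding was not measured. The median GC content of the windows was 62.8% for members and 59.2% for genes tested.

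Splicing regulators were among the more abundant mRNAs of the control hippocampus. Per kilobase of exonic length, the median member stood at 45.4 CPM per kb, the median of all genes tested was 5.79, and 41 of 46 members exceeded that median. The highest were *Hnrnpa2b1*, an A/B-type hnRNP that also directs mRNA transport in dendrites, with 467.1 ± 26.7 CPM per kb (SD, n = 6), *Srsf5* with 270.4 ± 12.5 and *Hnrnph1*, which binds G-rich elements, with 163.6 ± 8.13. At the lower end were *Mbnl1*, the muscleblind protein trapped by CUG repeats in myotonic dystrophy, with 3.885 ± 0.280 CPM per kb, *Hnrnpc* with 1.615 ± 0.353 and *Hnrnpab* with 0.142 ± 0.0556. Most neighbours in this order were not separated, since the control rats of 34 of 45 neighbouring pairs overlapped. *Hnrnpab* had 2 to 15 read pairs per library and was the only member that did not pass the filter on low counts. *Hnrnpc* had 95 to 189 read pairs. Read pairs that map to several places were not counted, and how many were lost for these genes was not tested.

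**Figure D1:**
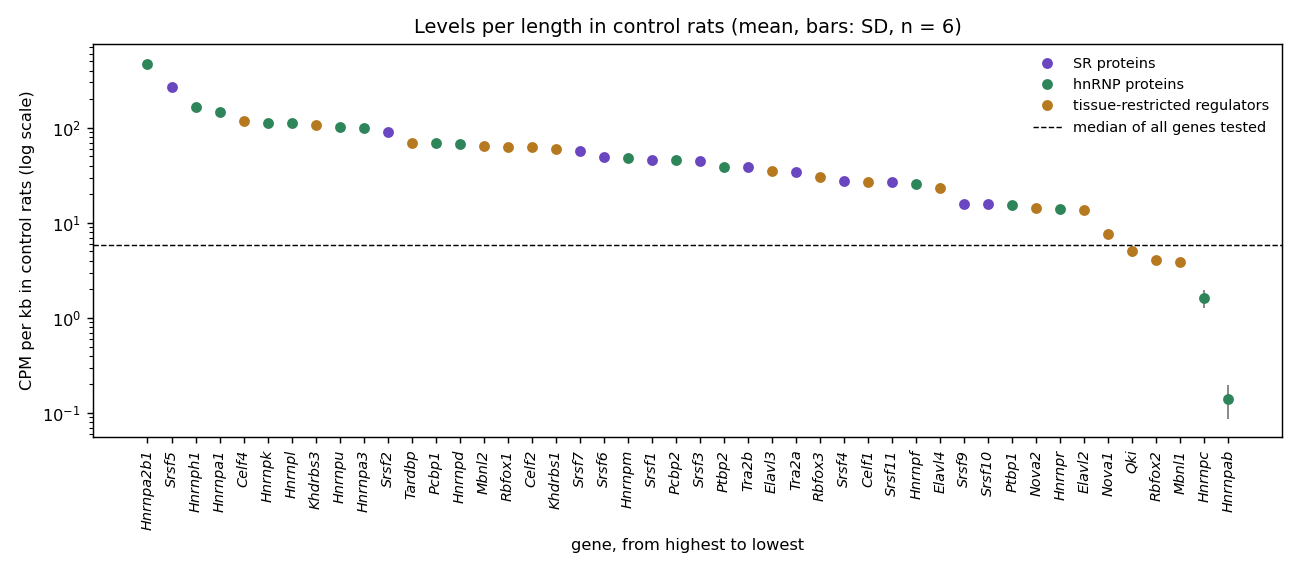
Mean level per length (CPM per kb, log axis) of each of the 46 members in the 6 control rats, from highest to lowest, with SD bars and colours for the 3 families. The levels run from 467.1 for *Hnrnpa2b1* to 0.142 for *Hnrnpab*, and 41 members lie above the dashed line at 5.79, the median of all genes tested.

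Withdrawal was first compared with control. Of the 45 members tested, 4 were higher at a limma-voom q below 0.1 (false discovery rate over all 17853 genes tested, with 3 surrogate variables, estimates of unrecorded differences between rats, in the model) and none was lower. Among all genes, 5.41% passed (2.85% higher). The 4 members were *Ptbp1*, *Pcbp1*, *Pcbp2* and *Tardbp*, so that the members' share (8.89%) was above that of all genes by few genes. By family, 0 of 12 SR genes, 3 of 16 hnRNP genes and 1 of 17 tissue-restricted or disease-linked genes passed. Members tended to be above control rather than below, with a positive fold change for 31 of 45 (50.1% of all genes) and a median log2 fold change of 0.052 (0.000305 for all genes).

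**Figure D2:**
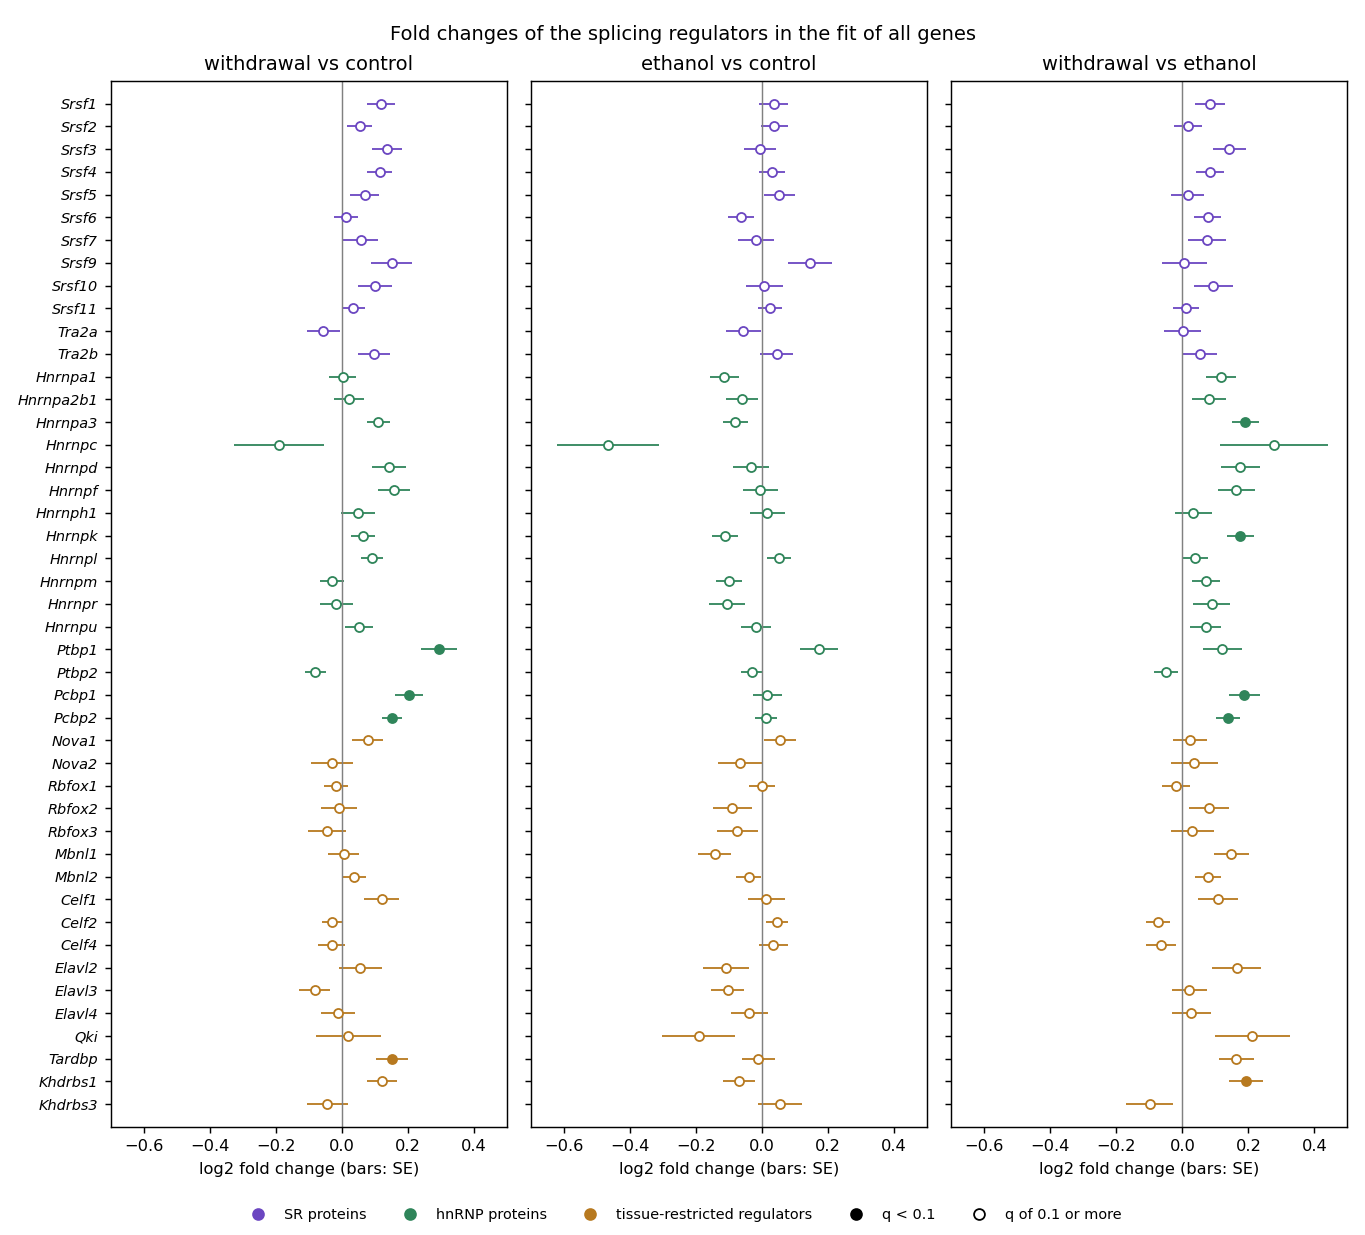
Log2 fold change (x axis, bars show the SE) of the 45 members tested for the 3 comparisons, one panel each, with withdrawal against control first and withdrawal against ethanol last, and with filled points for q below 0.1. The filled points, 4 in the first panel and 5 in the third, all lie to the right of 0, and the middle panel has none.

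PCBP1 and PCBP2 are KH-domain proteins that bind C-rich RNA and act in splicing, mRNA stability and translation. *Pcbp1* (chromosome 4, 118327185 to 118329223, minus strand, Rnor_6.0) ranged from 127.5 to 136.8 CPM in control with a median of 133.7, from 126.0 to 147.2 CPM in ethanol with a median of 131.1, and from 147.3 to 171.4 CPM in withdrawal with a median of 151.4. Every withdrawal rat thus exceeded the highest rat of both other groups, although ethanol rat 5 came within 0.1 CPM of the lowest withdrawal rat. *Pcbp1* rose by 0.20 on the log2 scale against control (SE 0.0416, q = 0.0244). *Pcbp2* (chromosome 7, 144077901 to 144103723, plus strand) had the smallest control SD of any member on the log2 scale, and its control rats ranged from 193.9 to 198.0 CPM with a median of 196.6. Its ethanol rats ranged from 192.7 to 206.5 CPM (median 195.8) and its withdrawal rats from 207.6 to 234.8 CPM (median 215.6), again without overlap. On the opposite strand 26.6% of its exonic bases are shared with another gene, and the counting was strand-specific. *Pcbp2* rose by 0.15 against control (SE 0.0316, q = 0.0259). Complete separation upward of the withdrawal from the control rats was seen for these 2 members and for 0.521% of all genes. Ethanol rats did not differ detectably from control for either gene, with 95% intervals of the log2 fold change from -0.08 to 0.11 for *Pcbp1* and from -0.06 to 0.08 for *Pcbp2*.

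*Ptbp1* (chromosome 7, 12663965 to 12673723, minus strand) had the largest increase of any member in withdrawal. Its control rats ranged from 40.07 to 50.47 CPM (median 43.94), the ethanol rats from 47.24 to 53.73 CPM (median 50.37) and the withdrawal rats from 46.23 to 63.20 CPM (median 52.69). Control rat 1 overlapped with withdrawal rats 2, 4 and 5, and the other control rats lay below every withdrawal rat. The log2 fold change was 0.29 (SE 0.0533, q = 0.0198). Markers of endothelial cells moved in the same comparison, with 4 of 7 higher (*Pecam1*, *Flt1*, *Kdr* and *Esam*) and 0 lower, and their summed level was 261.3 to 327.8 CPM in control and 280.5 to 367.6 CPM in withdrawal. Glial and neuronal markers were also called in this comparison. Of 7 astrocyte markers *Gfap* was higher (0.54, q = 0.0775) and *Aldh1l1* (-0.41, q = 0.0487) and *Gja1* (-0.13, q = 0.0866) were lower. Of 7 oligodendrocyte markers *Olig2* was higher (0.28, q = 0.024), and of 5 hippocampal neuron markers *Prox1* was lower (-0.26, q = 0.0968). The summed astrocyte markers were 3840 to 4288 CPM in control and 3350 to 4998 CPM in withdrawal, and the oligodendrocyte markers 12690 to 17500 CPM and 12770 to 15190 CPM. None of these marker calls passed without surrogate variables. The blood genes had the largest marker differences, with *Hbb* (-1.51, q = 0.0195) and *Hba-a2* (-1.54, q = 0.0198) lower in withdrawal, and both also passed without surrogate variables (q = 0.0695 and q = 0.0787). The part of any of these cell types in the values of *Ptbp1* or of the other members called in this comparison was not tested. *Tardbp*, which encodes the RNA-binding protein TDP-43 that represses cryptic exons, ranged from 202.0 to 223.5 CPM in control (median 214.7) and from 214.6 to 269.5 CPM in withdrawal (median 235.7). It was higher by 0.15 (SE 0.0477) with q = 0.0991, at the edge of the threshold. The call was kept in only 8 of 37 alternative settings, 3 of them among the 18 fits that left out 1 rat, and it was lost under each other scaling and filter. The sign was kept in all 37. *Hnrnpf* (0.16, SE 0.0496) followed next in the order of p and did not pass.

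**Figure D3:**
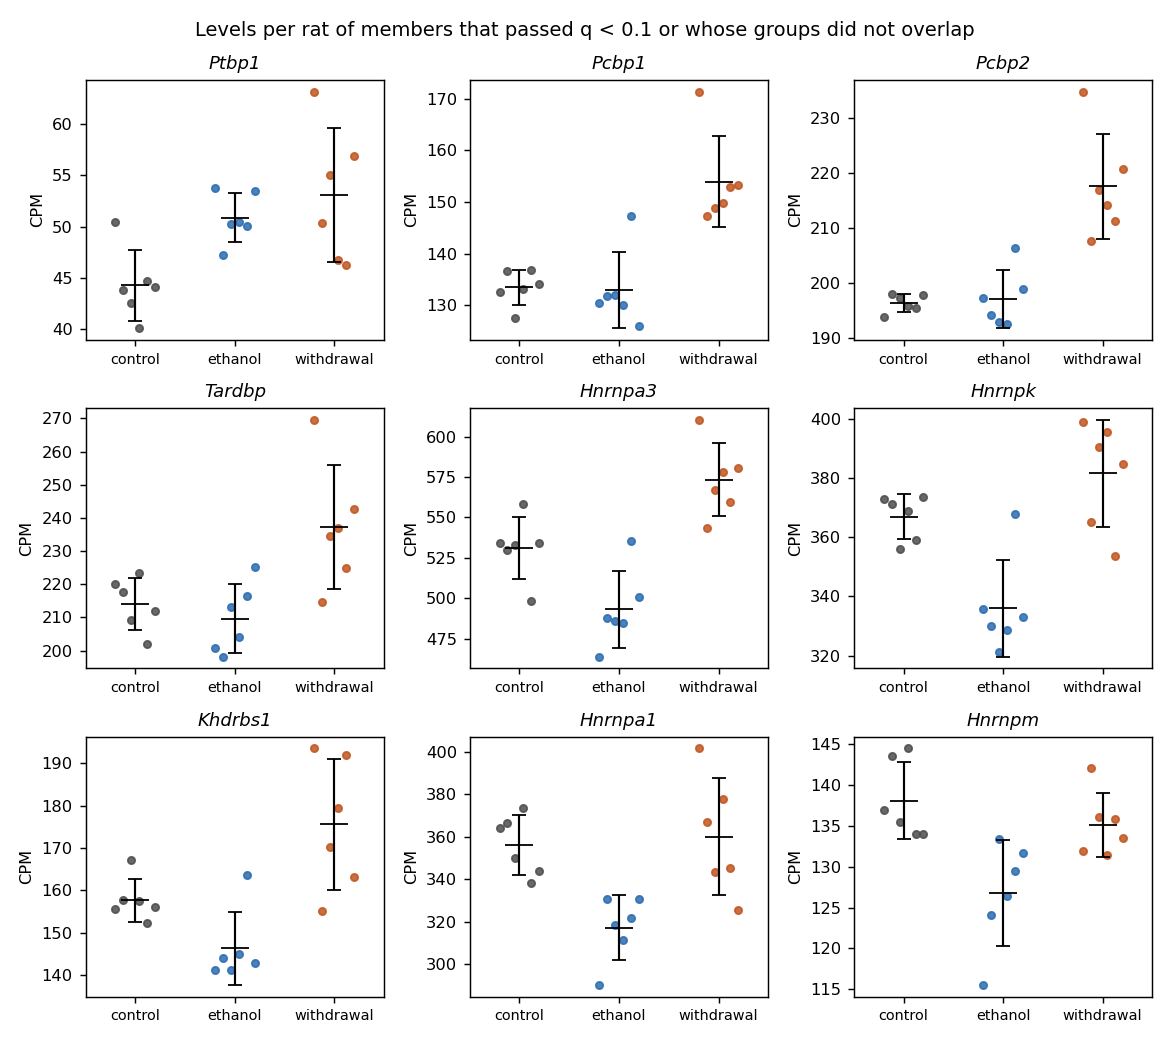
CPM of 9 members in each rat (points, 6 per group) with group mean and SD (bars). The axes do not start at 0. *Pcbp1* and *Pcbp2* in withdrawal lie above every control and ethanol rat, *Hnrnpa3* in withdrawal above every ethanol rat, and *Hnrnpa1* and *Hnrnpm* in ethanol below every control rat.

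These calls depended on single rats and on the surrogate variables. Without withdrawal rat 6 none of the 45 members passed, although the log2 fold changes were then 0.32 for *Ptbp1* (q = 0.108), 0.20 for *Pcbp1* (q = 0.127) and 0.15 for *Pcbp2* (q = 0.127), and only 23 genes passed in all. Without surrogate variables *Pcbp1* alone passed (q = 0.0782), against 0.0784% of all genes called higher. Without withdrawal rat 2, which was the lowest withdrawal rat for 18 members (and for 13.3% of all genes), 13 members passed, but so did 10.7% of all genes.

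SR genes did not pass in withdrawal, but 11 of 12 had a positive fold change and their median was 0.08. The largest was *Srsf9* (0.15, SE 0.0625, q = 0.195) and the smallest q was that of *Srsf4* (0.11, SE 0.0374, q = 0.110). *Srsf3*, which encodes the smallest SR protein and links splicing to mRNA export, ranged from 120.1 to 133.9 CPM in control (median 130.4) and from 131.7 to 160.9 CPM in withdrawal (median 139.4), with 5 withdrawal rats above all control rats (log2 fold change 0.14, q = 0.112). *Tra2a*, a transformer-2 homologue that binds GA-rich enhancers, was the only SR gene with a negative value (-0.06, SE 0.0494, q = 0.560). Among hnRNPs the lowest fold change was that of the sparsely counted *Hnrnpc* (-0.19, SE 0.137, q = 0.464). *Elavl3*, which encodes a neuronal Hu protein, had the lowest value of the third family (-0.08, SE 0.0466, q = 0.337).

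Ethanol was then compared with control. None of the 45 members passed in either direction, 7 had an unadjusted p below 0.05 (12.5% of all genes did) and the lowest q was 0.222 (*Hnrnpc*, -0.47, SE 0.155). DESeq2 called 1 member with the same surrogate variables (2.65% of all genes) and 4 without them (2.41%), and edgeR called 0 in both cases. Few genes passed limma-voom at all in this comparison (0.493%). The fold change was positive for 19 of 45 members (50.1% of all genes), with a median of -0.02. Without surrogate variables it was positive for 9 of 45 members, and for 0 of 17 in the third family, against 49.6% of all genes. *Hnrnpa1*, which encodes the prototypic hnRNP that antagonises SR proteins at 5′ splice sites, ranged from 338.4 to 373.4 CPM in control (median 357.1) and from 290.2 to 330.8 CPM in ethanol (median 320.0). *Hnrnpm* ranged from 134.0 to 144.5 CPM in control (median 136.3) and from 115.5 to 133.4 CPM in ethanol (median 127.9). For both genes every ethanol rat lay below every control rat, as for 0.398% of all genes, and the exact permutation p was 0.00216, the smallest that 6 against 6 rats can give. The fit of all genes gave -0.11 (SE 0.0440, q = 0.293) for *Hnrnpa1* and -0.10 (SE 0.0389, q = 0.294) for *Hnrnpm*, so that neither passed in limma-voom once adjusted over all genes. Both were among the 4 members that DESeq2 called without surrogate variables, and *Hnrnpa1* among the 3 called with sample quality weights, and neither was called under any other setting tried. In withdrawal *Hnrnpa1* ranged from 325.3 to 401.5 CPM and *Hnrnpm* from 131.5 to 142.1 CPM, both overlapping control.

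The largest increase and decrease of each family in ethanol did not pass. They were 0.14 for *Srsf9* (SE 0.0674, q = 0.391) and -0.06 for *Srsf6* (SE 0.0382, q = 0.519) among SR genes. Among hnRNPs they were 0.17 for *Ptbp1* (SE 0.0573, q = 0.223) and -0.47 for *Hnrnpc* (SE 0.155, q = 0.222). In the third family they were 0.05 for *Khdrbs3* (SE 0.0666, q = 0.788) and -0.19 for *Qki* (SE 0.111, q = 0.502), which encodes the quaking protein of glia. The sign of the *Khdrbs3* value depended on the surrogate variables. Fits that left out 1 rat gave -0.114 to -0.0278 for *Srsf6*, which was called only with sample quality weights (q = 0.0925).

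Withdrawal was finally compared with the group that stayed on ethanol. Here 5 of 45 members were higher at q below 0.1 and none was lower, against 2.72% of all genes (1.23% higher). They were *Hnrnpa3*, *Hnrnpk*, *Pcbp1*, *Pcbp2* and *Khdrbs1*, that is 4 of 16 hnRNP genes, 1 of 17 in the third family and 0 of 12 SR genes. Markers of glia were called in this comparison too, *Gfap* (0.74, q = 0.0578) among 7 astrocyte genes and *Olig2* (0.31, q = 0.0472) among 7 oligodendrocyte genes, both higher in withdrawal, and their part in the members' values was not tested. A positive fold change was found for 40 of 45 members (49.9% of all genes), and the median was 0.08 (-0.000232 for all genes). Without surrogate variables 9 members were higher (1.78% of all genes), and these included *Srsf3* (q = 0.0773), *Hnrnpa1* (q = 0.0779), *Hnrnpd* (q = 0.0759) and *Tardbp* (q = 0.0883).

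*Hnrnpa3*, an A/B-type hnRNP, ranged from 463.9 to 535.6 CPM in ethanol (median 486.7), from 543.7 to 610.3 CPM in withdrawal (median 572.6) and from 498.4 to 558.4 CPM in control (median 533.4). All withdrawal rats exceeded all ethanol rats, and control lay between the groups and overlapped both. The log2 fold change against ethanol was 0.19 (SE 0.0405, q = 0.0472). *Hnrnpk*, whose KH domains bind C-rich RNA like those of the PCBPs, ranged from 321.2 to 367.9 CPM in ethanol (median 331.4) and from 353.8 to 399.1 CPM in withdrawal (median 387.6). Ethanol rat 5 was the exception within its group, and the other ethanol rats lay below every withdrawal rat. The *Hnrnpk* fold change was 0.18 (SE 0.0403, q = 0.0563). *Khdrbs1*, which encodes the STAR-family protein Sam68, ranged from 141.1 to 163.6 CPM in ethanol (median 143.4) and from 155.1 to 193.5 CPM in withdrawal (median 174.9). Its fold change was 0.19 (SE 0.0517, q = 0.0847), with ethanol rat 5 again inside the withdrawal range. The *Khdrbs1* call was kept in 21 of 38 alternative settings, 7 of them among the 18 fits that left out 1 rat. It was lost when any single control rat was left out. *Pcbp1* (0.19, SE 0.0468, q = 0.065) and *Pcbp2* (0.14, SE 0.0355, q = 0.0711) completed the 5, and 3 members had no overlap between these groups (0.611% of all genes).

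The index set can be held constant for part of this comparison. In withdrawal rats 1 and 2, which shared the set of the ethanol rats, the mean difference from ethanol was 0.23 for *Hnrnpa3*, 0.19 for *Hnrnpk*, 0.26 for *Pcbp1*, 0.16 for *Pcbp2* and 0.25 for *Khdrbs1* on the log2 scale. In withdrawal rats 3 to 6 of the other set the same differences were 0.21, 0.18, 0.19, 0.13 and 0.27. The direction was the same in both sets for all 5 genes. These genes were called from all 6 withdrawal rats together, so that agreement was largely fixed by their choice. In the shared set, 2 withdrawal rats lay above every ethanol rat for *Hnrnpa3*, *Pcbp1* and *Pcbp2*, and 1 did for *Hnrnpk* and *Khdrbs1*. No test was run within the shared set, and the part of the index set in these values was not tested. Leaving out withdrawal rat 6, ethanol rat 2 or ethanol rat 3 each took the number of members called, and of all genes called, to 0, whereas without ethanol rat 5 there were 10 members and 10.1% of all genes. The fold changes kept their sign in all 18 fits that left out 1 rat, from 0.163 to 0.224 for *Hnrnpa3*, 0.157 to 0.211 for *Hnrnpk*, 0.157 to 0.238 for *Pcbp1*, 0.118 to 0.161 for *Pcbp2* and 0.142 to 0.255 for *Khdrbs1*. A fit of the ethanol and withdrawal rats alone called 0 members and 0 genes. *Qki* (0.21, SE 0.114, q = 0.362) and *Hnrnpc* (0.28, SE 0.164, q = 0.412) had larger fold changes than the genes that passed, but their spread was wider. The lowest fold changes were those of *Khdrbs3* in the third family (-0.10, SE 0.0705, q = 0.506) and *Ptbp2* among hnRNPs (-0.05, SE 0.0362, q = 0.520).

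Ratios between related genes were compared per rat, since they do not depend on library scaling. Of 8 ratios in each comparison, 3 differed for withdrawal against control, 1 for ethanol against control and 1 for withdrawal against ethanol (two-sided exact permutation test, Benjamini-Hochberg adjusted p below 0.05 over the 8). The *Ptbp1*/*Ptbp2* log2 ratio, which compares the progenitor and glial form with the neuronal form, was -1.76 ± 0.0884 (SD, n = 6) in control, from -1.907 to -1.658. In ethanol it was -1.50 ± 0.0965, from -1.605 to -1.386, and every ethanol rat lay above every control rat (difference 0.26, exact p = 0.00216, adjusted p = 0.0173). In withdrawal it was -1.42 ± 0.201, from -1.663 to -1.125, with 5 of 6 rats above all control rats (difference 0.33, exact p = 0.00433, adjusted p = 0.026). The ratio differed by 0.08 between withdrawal and ethanol (exact p = 0.431), within the spread of the rats. That difference was 0.18 in the withdrawal rats of the shared index set and 0.03 in those of the other set. In the differences of this ratio from control, the index set and the diet cannot be told apart. *Ptbp2* itself did not pass in any comparison, with log2 fold changes of -0.08 in withdrawal (q = 0.179) and -0.03 in ethanol (q = 0.758) against control. Beside this ratio stand the endothelial sums, which were 285.0 to 335.1 CPM in ethanol, and their part in it was not tested.

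CELF1 and CELF2 bind GU-rich elements and oppose MBNL proteins at many exons. The *Celf2*/*Celf1* log2 ratio was 0.54 ± 0.0560 in control, 0.57 ± 0.0628 in ethanol and 0.39 ± 0.0614 in withdrawal (SD, n = 6 each). Every withdrawal rat, from 0.310 to 0.481, lay below every ethanol rat, from 0.483 to 0.636 (difference -0.18, exact p = 0.00216, adjusted p = 0.0173). The gap between the groups was narrow. The difference from ethanol was -0.18 in the withdrawal rats of the shared index set and -0.18 in those of the other set. Against control the ratio was lower by 0.15 in withdrawal (exact p = 0.00649, adjusted p = 0.026), and ethanol and control differed by 0.03 (exact p = 0.338). Without withdrawal rat 1 the difference from control was -0.13 (exact permutation test, adjusted p = 0.0519) and no longer passed. Neither gene passed alone, and the levels of both varied widely, for *Celf2* from 281.8 CPM in withdrawal rat 5 to 465.5 CPM in ethanol rat 5 and for *Celf1* from 210.7 to 333.1 CPM in the same rats. The ratio thus separated groups whose single levels overlapped.

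The *Pcbp1*/*Pcbp2* ratio was higher by 0.06 in withdrawal than in control (exact p = 0.0152, adjusted p = 0.0404), a call that was kept in 4 and lost in 8 of the 12 fits that left out 1 rat of these groups. It was lost without control rat 1, 3, 4 or 6 and without withdrawal rat 1, 2, 4 or 5, where the difference was 0.04 to 0.06 (exact permutation test, adjusted p = 0.0606 to 0.0866). *Tra2a*/*Tra2b* was lower by 0.14 (exact p = 0.026, adjusted p = 0.0519) and did not pass. In the remaining ratios, *Nova2*/*Nova1*, *Rbfox3*/*Rbfox1*, *Mbnl2*/*Mbnl1* and *Khdrbs3*/*Khdrbs1*, no comparison passed, with the lowest adjusted p at 0.130 for *Rbfox3*/*Rbfox1* in ethanol against control. Without withdrawal rats 1 and 5 together, the *Ptbp1*/*Ptbp2* difference from control was 0.30 (adjusted p = 0.0762) and the *Celf2*/*Celf1* differences were -0.13 from control and -0.17 from ethanol (exact permutation test, adjusted p = 0.0762 each). Against ethanol the 4 remaining withdrawal rats still all lay below the ethanol rats, and 0.0762 is the smallest adjusted p that a single separated ratio of 8 can reach with 4 against 6 rats.

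**Figure D4:**
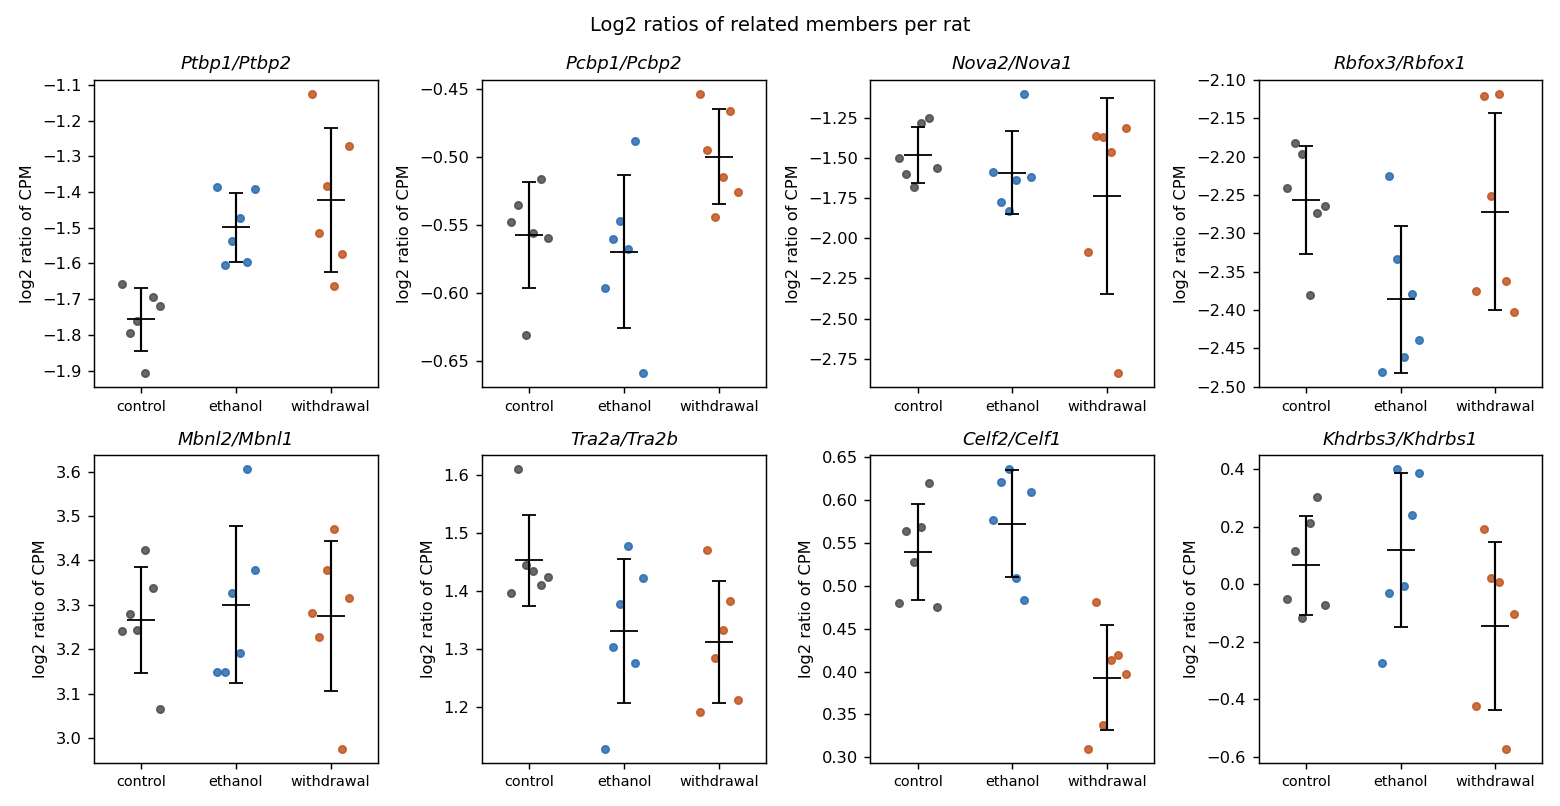
Log2 ratio of CPM of 8 pairs of related members in each rat (points) with group mean and SD (bars). *Ptbp1*/*Ptbp2* in all 6 ethanol rats lies above control (from -1.605 to -1.386 against -1.907 to -1.658), and *Celf2*/*Celf1* in all 6 withdrawal rats lies below ethanol (0.310 to 0.481 against 0.483 to 0.636).

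Some regulators varied widely between rats of a group. In control the SD of log2 CPM was largest for the sparsely counted *Hnrnpc* (0.318) and in ethanol for *Khdrbs3* (0.295). In withdrawal the SD of log2 CPM was largest for *Nova1* (0.475), followed by *Elavl4* and *Rbfox3*, whereas the median member had 0.109 and the median gene 0.195. *Nova1*, which encodes a regulator of synaptic exons that binds YCAY clusters, reached 145.0 CPM in withdrawal rat 5 against 57.75 CPM in withdrawal rat 6, and *Elavl4* was likewise highest in rat 5 (156.5 CPM) and lowest in rat 6 (89.19 CPM). Withdrawal rat 5 was the lowest of its group for 13 of 45 members (23.5% of all genes), among them *Celf1*, *Celf2*, *Mbnl2*, *Rbfox2*, *Nova2*, *Qki* and *Khdrbs3*. It was the highest for 5 (25.9% of all genes), which were *Nova1*, *Elavl4*, *Elavl2*, *Elavl3* and *Mbnl1*. That rat had the lowest hippocampal neuron marker sum of all 18 rats (270.9 CPM, against 467.5 to 797.2 CPM in the other withdrawal rats). Ethanol rat 1, with the high thalamus sum, had the lowest *Rbfox1* (376.1 CPM), *Rbfox3* (67.31 CPM) and *Khdrbs3* (116.5 CPM) of its group. The part of the dissected region in these levels was not tested.

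The other members used in the ratios overlapped between groups in each comparison. *Mbnl2*, the muscleblind form prominent in brain, ranged over 281.7 to 316.9 CPM in control, 261 to 313.5 CPM in ethanol and 266.3 to 320.8 CPM in withdrawal. *Mbnl1* was far lower, with 28.65 to 34.05 CPM in control, 25.71 to 31.64 CPM in ethanol and 28.91 to 33.8 CPM in withdrawal. *Rbfox1*, whose product binds UGCAUG next to neuronal exons, had 446.1 to 547.5 CPM in control, 376.1 to 556.4 CPM in ethanol and 401.3 to 532.6 CPM in withdrawal. *Rbfox3*, which encodes the neuronal nuclear antigen NeuN, had 92.86 to 109.3 CPM in control, 67.31 to 106.9 CPM in ethanol and 77.32 to 122.6 CPM in withdrawal. The SD of log2 CPM of both *Rbfox* genes was larger in ethanol and in withdrawal than in control, as was that of the median gene (0.132 in control, 0.178 in ethanol and 0.195 in withdrawal). *Nova2* had 24.87 to 27.2 CPM in control, 21.05 to 27.04 CPM in ethanol and 20.2 to 28.8 CPM in withdrawal. *Tra2b*, whose product acts with SR proteins at GA-rich enhancers, had 89.28 to 99.61 CPM in control, 90.47 to 102 CPM in ethanol and 92.69 to 115.2 CPM in withdrawal. None of these 6 genes passed in any comparison.

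Members also moved together within a rat. Withdrawal rat 1 was the highest of its group for 25 of 45 members (18.7% of all genes), and ethanol rat 5 for 26 (24.6% of all genes). Ethanol rat 1 was the lowest of its group for 23 members (23.3% of all genes). The mean log2 CPM over the 45 members was 7.03 ± 0.0218 in control, 6.97 ± 0.0585 in ethanol and 7.08 ± 0.049 in withdrawal (SD, n = 6 each, a description without a test), and it ranged from 6.885 in ethanol rat 1 to 7.153 in withdrawal rat 1. For the SR genes the group means were 7.06, 7.05 and 7.14, for the hnRNP genes 7.27, 7.20 and 7.33, and for the third family 6.78, 6.70 and 6.80, in the same order. The groups overlapped in each of these means.

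**Figure D5:**
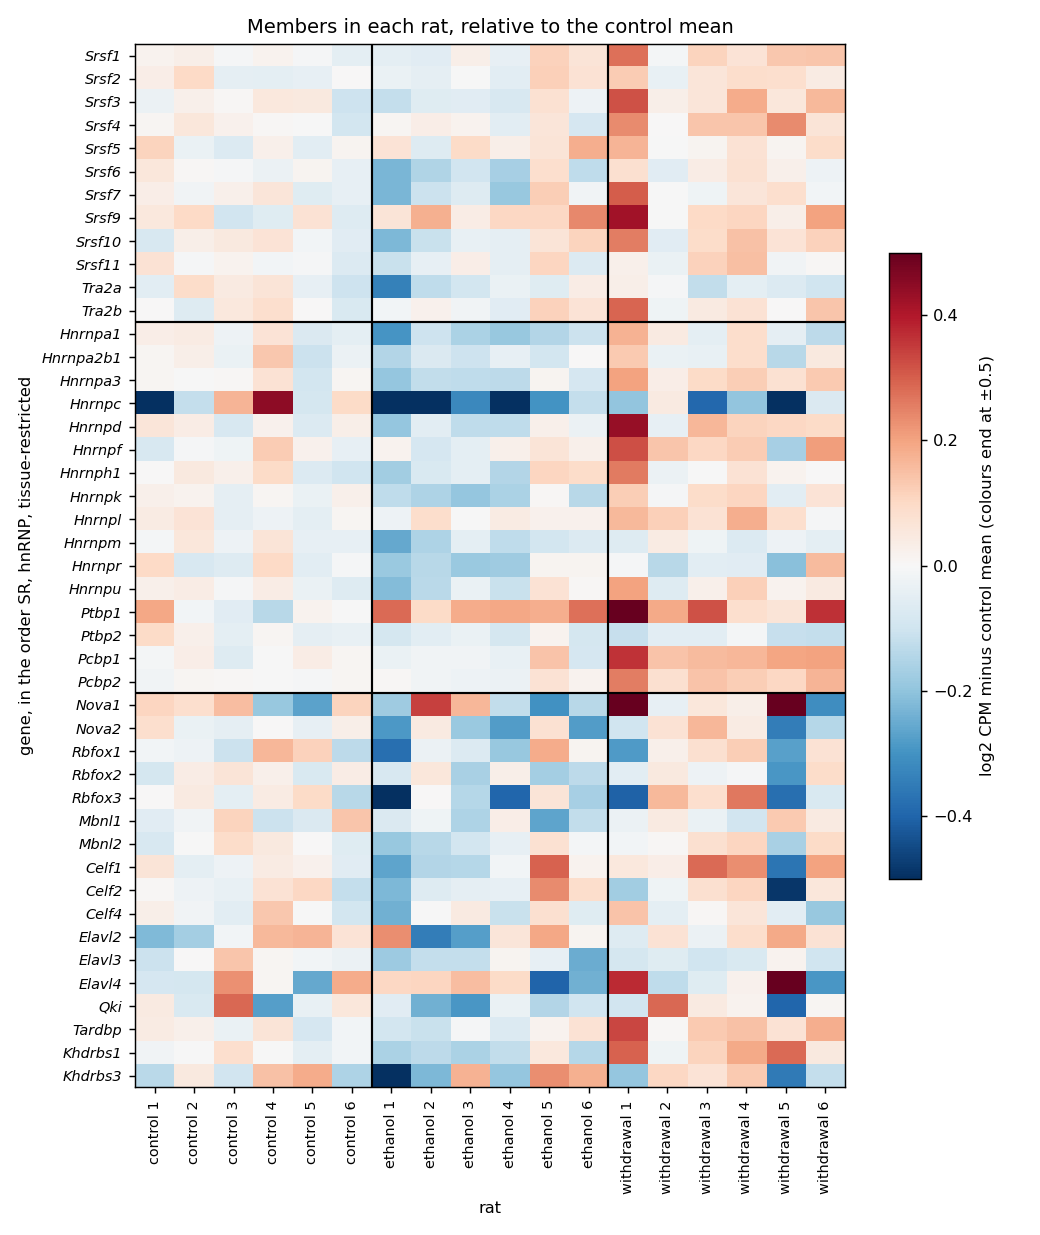
Log2 CPM of the 45 members tested in each of the 18 rats, minus the mean of the control rats, with red for higher and blue for lower and lines between groups and families. Withdrawal rat 1 is red over most SR and hnRNP genes, ethanol rat 1 is the lowest of its group for 23 members, and the row of *Ptbp1* is red in every ethanol and withdrawal rat.

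Related genes outside the 46 were described in 4 lists. None of 9 SR protein kinases and none of 19 other SR or SR-related genes passed in any comparison. Without surrogate variables 2 of the kinases (*Srpk1*, q = 0.0647, and *Prpf4b*, q = 0.0765) and 1 SR-related gene (*Scaf4*, q = 0.0897) passed in withdrawal against ethanol. Of 23 other hnRNP and related genes, 4 passed in withdrawal against control and all 4 were higher, against 5.41% of all genes called in either direction. None of the 23 passed in this comparison without surrogate variables. The 3 with the smallest p were *Hnrnpll*, which drives exon exclusion in activated lymphocytes (0.26, SE 0.0729, q = 0.0755), the paraspeckle gene *Pspc1* (0.24, SE 0.0694, q = 0.0768), and *Syncrip* (0.16, SE 0.0482, q = 0.0850). Against ethanol 3 were higher and 0 lower (2.72% of all genes were called and 1.23% were higher), and without surrogate variables 6 were called. The 3 were *Hnrnpul1* (0.17, q = 0.0585), *Pspc1* (0.30, q = 0.0784) and *Sfpq* (0.27, q = 0.0810). The fold change was positive for 20 and 19 of the 23, with medians of 0.07 and 0.09. Of 18 other tissue-restricted regulators tested, *Msi1* was higher (0.26, q = 0.0519) and *Celf6* lower (-0.26, q = 0.0920) in withdrawal than in control, and *Celf3* (-0.18, q = 0.0472) and *Celf6* (-0.31, q = 0.0967) were lower than in ethanol. Their fold change was positive for 8 of 18 against control and 7 of 18 against ethanol, with medians of -0.02 and -0.04. Without surrogate variables none of these calls remained, with q = 0.240 for *Msi1*, 0.410 and 0.136 for *Celf6* and 0.466 for *Celf3*. In ethanol against control no gene of these 4 lists passed.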

How the data were processed

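The authors sequenced poly(A)-selected, strand-marked RNA of 18 rats as read pairs, aligned them to Rnor_6.0 with STAR 2.5.2a and deposited raw counts per gene over exons, made with featureCounts 1.5.0 by strand and without multi-mapping pairs. Each library is a separate animal. Of 38445 gene identifiers, 29322 were named from a RefSeq table of GRCr8. Genes above 0.5 CPM in at least 1 rat were kept (17853). Counts were scaled with TMM (edgeR 4.0.16) and fitted with limma-voom (limma 3.58.1, R 4.3.3) over all 18 rats with 3 surrogate variables (sva 3.50.0), with Benjamini-Hochberg q below 0.1 as the threshold. Log2 CPM used a prior count of 2. Ratios were tested with exact permutation tests over all splits of the rats (NumPy 2.4.6). SciPy 1.17.1 gave the t quantile of the confidence intervals. Scripts were tested on simulated data.

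The members and gene lists were chosen with earlier results of these data known. Values are given for members that passed, whose groups did not overlap, that enter the ratios, that stand at the ends of the order per length, or that had the largest change of their family, and from each other list for at most 3 genes per comparison with the smallest p below the threshold. *Nova1* and *Elavl4* spreads and *Srsf4*, *Hnrnpf*, *Elavl2*, *Rbfox2*, *Srpk1*, *Prpf4b* and *Scaf4* were named after their values were seen. Alternatives were other numbers of surrogate variables, edgeR and DESeq2 1.42.0, sample weights, scalings, filters, thresholds, subsets of groups, a block for the rat number, and fits that omit single rats.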

Additional observations from a re-analysis of the deposited data

Results flagged for a closer look

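In 10 of 162 groups of 6 rats (6.17%), 1 rat lay further from the others than the 95% limit of Dixon's test allows. Chance flags about 1 in 20 groups. Ethanol rat 5 stood above the other ethanol rats for *Hnrnpk* (367.9 CPM against 321.2 to 335.7), *Pcbp1* (147.2 CPM against 126.0 to 132.0) and *Khdrbs1* (163.6 CPM against 141.1 to 144.9), and its *Nova2*/*Nova1* log2 ratio was -1.10 against -1.831 to -1.588. Withdrawal rat 1 stood above the others of its group for *Srsf7* (161.4 CPM against 129.1 to 138.6), *Hnrnph1* (378.1 CPM against 309.0 to 332.3) and *Pcbp1* (171.4 CPM against 147.3 to 153.3). *Elavl3* in withdrawal rat 5 was 83.28 CPM against 76.87 to 78.95. In control, *Khdrbs1* was 167.2 CPM in rat 3 against 152.2 to 157.6, and the *Tra2a*/*Tra2b* log2 ratio was 1.609 in rat 2 against 1.397 to 1.444.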

How the results depend on the processing

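The counts in brackets are of all genes called under the same setting. For withdrawal against control, 4 members were called (965 genes), and 1 with 0 surrogate variables (41), 2 with 1 (112), 1 with 5 (262), 1 by edgeR without them (33) and 11 by DESeq2 with 3 (1624). It was 3, without *Tardbp*, under each of the 3 other scalings, both other filters and at q below 0.05. For ethanol against control, 0 were called (88), and 1 with 5 surrogate variables (*Hnrnpk*, 322), 1 by DESeq2 with 3 (*Hnrnpc*, 473), 4 by DESeq2 without them (431), 3 with sample quality weights (506) and 1 without ethanol rats 1 and 5 (*Hnrnpk*, 293). For withdrawal against ethanol, 5 were called (486), and 9 with 0 surrogate variables (621), 13 with 1 (1492), 9 by edgeR without them (682), 9 by DESeq2 with 3 (1176) and 11 without (1443), 10 with sample quality weights (1486), 2 without a filter on low counts (166), 1 at q below 0.05 (112), 0 with only the 2 groups compared (0), 3 without withdrawal rats 1 and 5 (541) and 10 without ethanol rats 1 and 5 (1786). Leaving out each rat in turn gave 0 to 13, 0 to 0 and 0 to 10 members in the 3 comparisons. The settings that leave out rats 1 and 5 together were chosen after seeing the data. The cause of these changes was not tested.

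The number of ratios called was 3, 1 and 1. It ranged from 1 to 3, 1 to 2 and 1 to 2 when single rats were left out, was 0 in withdrawal against control and 0 against ethanol without withdrawal rats 1 and 5 (against ethanol 1 separated ratio could not pass with 4 against 6 rats, since its smallest adjusted p is 0.0762), and 2 in withdrawal against ethanol without ethanol rats 1 and 5. The *Khdrbs3* fold change in ethanol against control (0.05) changed sign to -0.0556 with 0 surrogate variables, -0.0631 with 1, -0.0379 by edgeR and -0.0399 by DESeq2 without them, -0.0164 with sample quality weights, -0.056 with the replicate block without surrogate variables and -0.0119 without ethanol rat 3 (range without single rats -0.0119 to 0.126). Against ethanol in withdrawal (-0.10) it was 0.0663 with 1 surrogate variable and 0.0321 with sample quality weights. The mean over members was computed again only under the 3 other scalings and with rats left out. Its difference between groups kept its sign in all of these. It was 0.03 to 0.0606 for withdrawal against control, -0.0771 to -0.0468 for ethanol against control and 0.0919 to 0.124 for withdrawal against ethanol.

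Rat numbers are shared between groups. The authors state that rats were pair fed, but not which rats formed pairs. Of 18 equal-numbered pairs, 4 correlated above 0.1 over all genes (range -0.325 to 0.383). Of 18 rats, 5 were closest to a rat of their own number. No test was run on these values, so they cannot decide whether equal numbers mark pairs, and the main fit has no block. With the replicate block, 5 members (914 genes) were called in withdrawal against control with 3 surrogate variables and 0 (0 genes) without. In withdrawal against ethanol 0 members were called in both cases, with 1 and 14 genes.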
